A study of Mus musculus with 12 samples.

Results

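The genes described here are 8 members of the SLAM family and its signalling pathway, out of 24561 genes counted. They were chosen by name and were all found in the count table and passed edgeR's expression filter, which kept 12719 genes. *Sh2d1a* encodes the adaptor SAP, *Fyn* the Src-family kinase that SAP recruits, and *Slamf1*, *Slamf6*, *Slamf7*, *Ly9*, *Cd84* and *Cd48* encode cell-surface proteins of the SLAM family. RNA was measured in OT-II T cells, which carry a transgenic receptor for an ovalbumin peptide, sorted as CXCR5hiPD-1hi follicular helper T (Tfh) cells from lymph nodes 3 days after immunization with NP-OVA, LPS and alum. The 2 groups, both of C57BL/6 background, were *Cd4-cre* × *Bcl6* fl/+ OT-II cells, named BCL6-insufficient, and *Cd4-cre* OT-II cells, named wild-type. Cre is driven by the *Cd4* promoter in both, so all transferred T cells of either group carry it, and the floxed allele can be deleted throughout the T cell lineage. The recipients of both groups were CD45.1 *Sap*-/- mice, in which *Sh2d1a* is disrupted in the host's own cells but not in the transferred cells. Each group held 3 recipients with 2 technical repeats of about 200 cells per recipient, or 12 libraries. A mouse below is a recipient, and the number of donors for this transfer is not given in the sources used here. The p-values therefore measure the spread between these mice, which may share a donor.

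Total counts per library lay between 3343375 and 8315722 in the BCL6-insufficient group and between 5240715 and 7266106 in the wild-type group. The repeats of a mouse were summed, and levels are given as normalized CPM, the counts of a gene relative to the library total after TMM scaling. *Bcl6*, the gene that the genotype targets, ran against the direction of the label. It stood at 150, 146 and 150 CPM in the 3 mice labelled BCL6-insufficient and at 54.8, 75.6 and 56.9 CPM in the 3 labelled wild-type, which is 1.25 higher on the log2 scale (SE 0.12, adjusted p = 6.30e-07, edgeR). These counts are not restricted to the part of *Bcl6* that Cre removes, so they can include reads of a recombined allele and do not test the labels. The cause of the higher *Bcl6* level was not tested. Every direction below, those of *Ly9* and *Fyn* included, is that between the libraries labelled BCL6-insufficient and those labelled wild-type and rests on those labels. The Tfh markers *Cxcr5*, *Pdcd1*, *Icos* and *Cd4* were all present, at mean levels between 164 and 514 CPM in either group. Markers of other cells were mixed. *Ms4a1* was at 0.379 and 0.181 CPM in the BCL6-insufficient and wild-type mice, *Jchain* and *Eomes* at 0 counts in all 12 libraries and *Cd8a* at 0 in 11 of them, but *Ighm* was at 533 and 655 CPM, *Cst3* at 88.4 and 76.8, *Cd8b1* at 25.7 and 34.1, *Cd74* at 22.6 and 17.0 and *Lyz2* at 7.77 and 1.24.

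As background, SLAM receptors are immunoglobulin-type proteins of blood cells. Most of them bind the same receptor on the partner cell, while CD48 is held to the membrane by a lipid anchor and binds CD2 and CD244. The tails of the signalling receptors carry tyrosine switch motifs, many of which recruit SAP. SAP is a small protein made of little more than an SH2 domain and brings in the kinase FYN. Without SAP the same tails can recruit inhibitory phosphatases. SAP is needed in T cells for lasting contact with B cells and for germinal centres, and SLAMF6, Ly108 in the mouse, is a main receptor through which it acts there.

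The switch motifs of SLAM receptors read as a threonine, any residue, a tyrosine, any pair of residues and then a valine or isoleucine. They were searched codon by codon in the longest complete coding sequence of each gene in GENCODE M21, on the coding strand. Each is printed 5′ to 3′ with the tyrosine codon in capitals, after the codons it spans.
*Slamf1*, codons 286 to 291 of 343: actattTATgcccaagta
*Slamf1*, codons 333 to 338: acagttTATgccagtgtg
*Slamf6*, codons 293 to 298 of 351: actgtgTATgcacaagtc
*Slamf6*, codons 317 to 322: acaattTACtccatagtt
*Slamf7*, codons 300 to 305 of 335: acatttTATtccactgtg
*Ly9*, codons 585 to 590 of 654: actccaTATgataaagtg
*Ly9*, codons 623 to 628: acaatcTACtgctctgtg
*Cd84*, codons 263 to 268 of 329: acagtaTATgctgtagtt
*Cd84*, codons 298 to 303: accattTATtcctcagtg
All 9 begin between 79.9% and 97.1% of the way along their coding sequences, toward the end that encodes the cytoplasmic tails. *Slamf1*, *Slamf6*, *Ly9* and *Cd84* held 2 matches each and *Slamf7* held 1. *Cd48* had a single match at codons 105 to 110 of 240, in a protein with no cytoplasmic tail, and *Sh2d1a* and *Fyn* had none. Of 21593 mouse coding sequences searched in the same way, 7.95% held at least 1 match and 0.607% at least 2. A match is a string of codons and says nothing of use in these cells or of binding to SAP.

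*Ly9* and *Fyn* were the 2 of the 8 genes that passed the test between the groups. *Ly9*, a self-binding SLAM receptor, was lower with the BCL6-insufficient label and *Fyn* was higher. The other 6, *Sh2d1a* and *Slamf6* included, did not pass. For comparison, 18.0% of all genes tested passed at an adjusted p under 0.05, with 9.17% higher and 8.82% lower in the BCL6-insufficient group, so a count of 2 in 8 is near the background. The same 2 genes had mice of the groups that did not overlap, against 34.4% of all genes. The median log2 fold change was -0.041 over the 8 genes and 0.011 over all genes tested. In bulk RNA, fewer cells that express a gene and less RNA per cell cannot be told apart.

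**Figure D1:**
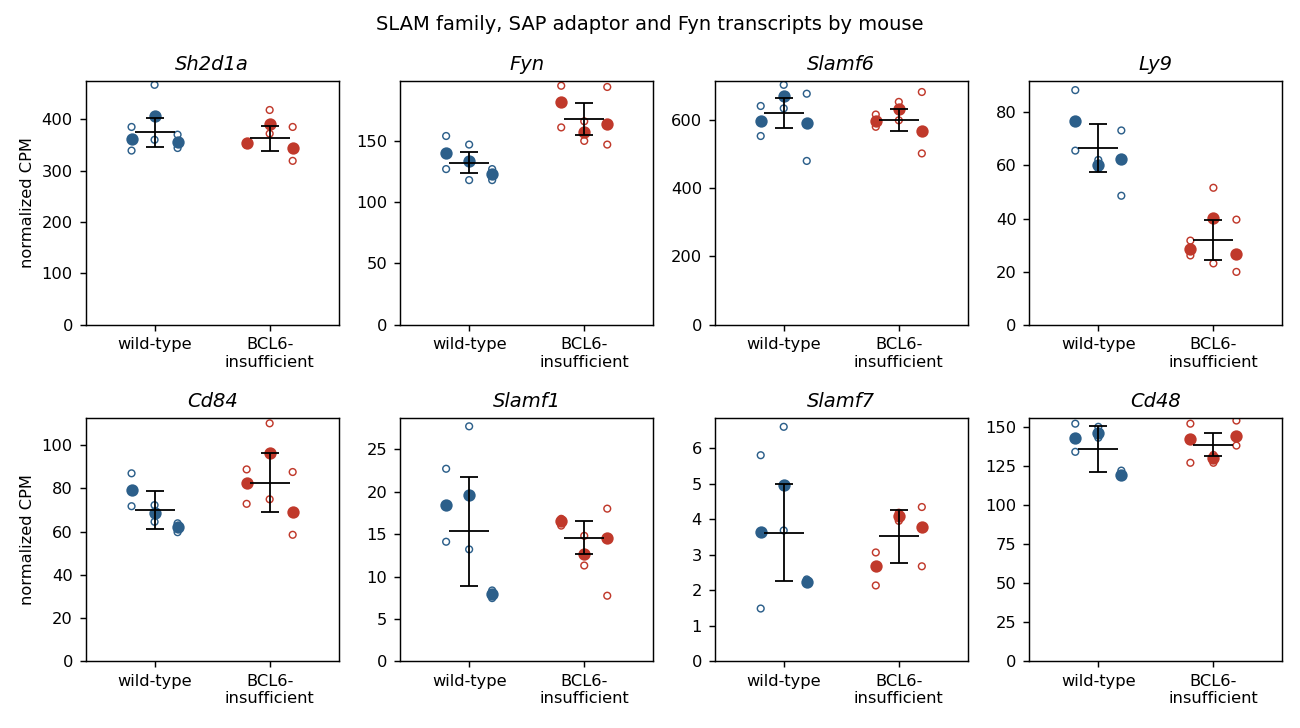
Normalized CPM of the 8 genes, with 1 panel per gene and an axis from 0. Filled points are mice, open points their 2 technical repeats, and black lines the mean ± SD of 3 mice; the groups separate for *Ly9* (26.8 to 40.4 against 60.2 to 76.9) and *Fyn* (157 to 182 against 123 to 140) and overlap in the other 6 panels.

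*Sh2d1a* lies on the X chromosome of GRCm38 from 42502453 to 42529330. Its level was 353, 391 and 344 CPM in the BCL6-insufficient mice and 361, 407 and 355 CPM in the wild-type mice. The ranges largely overlapped. The means of 363 ± 25.1 (SD, n = 3) and 374 ± 28.3 (SD, n = 3) gave a log2 fold change of -0.04 (SE 0.09, 95% interval -0.24 to 0.15, adjusted p = 0.794, edgeR). The interval corresponds to a fold between 0.848 and 1.11. Single libraries ran from 319 to 418 CPM and from 339 to 467 CPM. The highest, repeat 1 of wild-type mouse 2, stood apart from the other wild-type libraries, whose median was 360, and without it the log2 fold change was 0.01. On the opposite strand, *Tenm1* shares 1465 exon bases with *Sh2d1a*, or 26.6% of its exon length, but was counted at only 11 reads in all 12 libraries.

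*Fyn*, on chromosome 10 from 39368855 to 39565381, encodes a kinase that also signals from the T cell receptor. It stood at 182, 157 and 164 CPM in the BCL6-insufficient mice and at 140, 134 and 123 CPM in the wild-type mice. Every BCL6-insufficient mouse was above every wild-type mouse. The means of 167 ± 12.9 (SD, n = 3) and 132 ± 8.45 (SD, n = 3) differed by a log2 fold change of 0.34 (SE 0.10, 95% interval 0.13 to 0.55, adjusted p = 0.0214, edgeR), a fold of 1.27. At the level of libraries the groups overlapped, with 147 to 195 CPM against 118 to 154 CPM and 4 of 6 BCL6-insufficient libraries above all wild-type ones. The direction was the same in all 24 alternatives, but the call was lost in 9 of them. It was lost with either repeat alone (0.38, adjusted p = 0.118, and 0.35, adjusted p = 0.0906), in the 3 fits on TPM (0.19 to 0.23), without BCL6-insufficient mouse 1 (0.28, adjusted p = 0.109), without wild-type mouse 2 (0.34, adjusted p = 0.0678) or its repeat 1 (0.29, adjusted p = 0.0871), and without wild-type mouse 3 (0.29, adjusted p = 0.113).

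*Slamf6*, from 171917515 to 171953170 on chromosome 1, encodes Ly108. Its level was 596, 633 and 568 CPM in the BCL6-insufficient mice and 596, 670 and 592 CPM in the wild-type mice. The groups shared most of their range. The log2 fold change was -0.05 (SE 0.09, 95% interval -0.23 to 0.14, adjusted p = 0.761, edgeR), with means of 599 ± 32.4 and 619 ± 44.2 (SD, n = 3 each). Repeats 1 and 2 stood at 616 and 580, 653 and 599, and 682 and 502 CPM in the 3 BCL6-insufficient mice. In the wild-type mice they stood at 553 and 641, 634 and 703, and 480 and 677 CPM. Repeat 2 was thus the lower in every BCL6-insufficient mouse and the higher in every wild-type mouse. The log2 fold change was 0.23 with repeat 1 alone (adjusted p = 0.302, edgeR) and -0.26 with repeat 2 alone (adjusted p = 0.109, edgeR), so the value over both repeats combines opposite signs.

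*Ly9* had the largest difference among the 8 genes. It lies on the reverse strand of chromosome 1 from 171588624 to 171607410 and encodes CD229, whose tail carries 2 of the switch motifs printed above. Its level was 28.5, 40.4 and 26.8 CPM in the BCL6-insufficient mice and 76.9, 60.2 and 62.6 CPM in the wild-type mice. The highest BCL6-insufficient mouse was below the lowest wild-type mouse. The means of 31.9 ± 7.41 (SD, n = 3) and 66.6 ± 9.05 (SD, n = 3) gave a log2 fold change of -1.06 (SE 0.16, 95% interval -1.38 to -0.74, adjusted p = 7.52e-05, edgeR), or a fold of 0.480 with an interval of 0.383 to 0.601. Over libraries the BCL6-insufficient group ran from 19.9 through a median of 28.9 to 51.6 CPM and the wild-type group from 48.6 through 63.9 to 88.4 CPM. Thus 5 of 6 BCL6-insufficient libraries were below all 6 wild-type ones. *Cd244a*, whose span crosses *Ly9* on the other strand, shares no exon bases with it and had 18 counts in all 12 libraries.

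The 2 technical repeats gave *Ly9* differences of unequal size. In repeat 1 the BCL6-insufficient mice had 31.7 to 51.6 CPM and the wild-type mice 48.6 to 65.6 CPM, and the gene was not called (log2 fold change -0.51, adjusted p = 0.112, edgeR). Repeat 2 gave 23.0 ± 3.13 and 73.5 ± 14.7 CPM (SD, n = 3 each) and a log2 fold change of -1.66 (adjusted p = 4.97e-07, edgeR). Within the BCL6-insufficient mice repeat 2 differed from repeat 1 by -0.28, -1.16 and -0.99 on the log2 scale, and within the wild-type mice by 0.43, -0.08 and 0.59. A test of whether this change differed between the groups, added after the values were seen and made in edgeR with the mouse as a term, gave a difference of -1.12 (SE 0.28, adjusted p = 0.134). That test called 0.0943% of all genes and none of the 8, of which *Ly9* and *Slamf6* had an unadjusted p under 0.05. The lower level of *Ly9* was called in 22 of 24 alternatives, the exceptions being repeat 1 alone and log2(TPM + 1) over all genes with a value (-1.03, adjusted p = 0.0576).

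**Figure D2:**
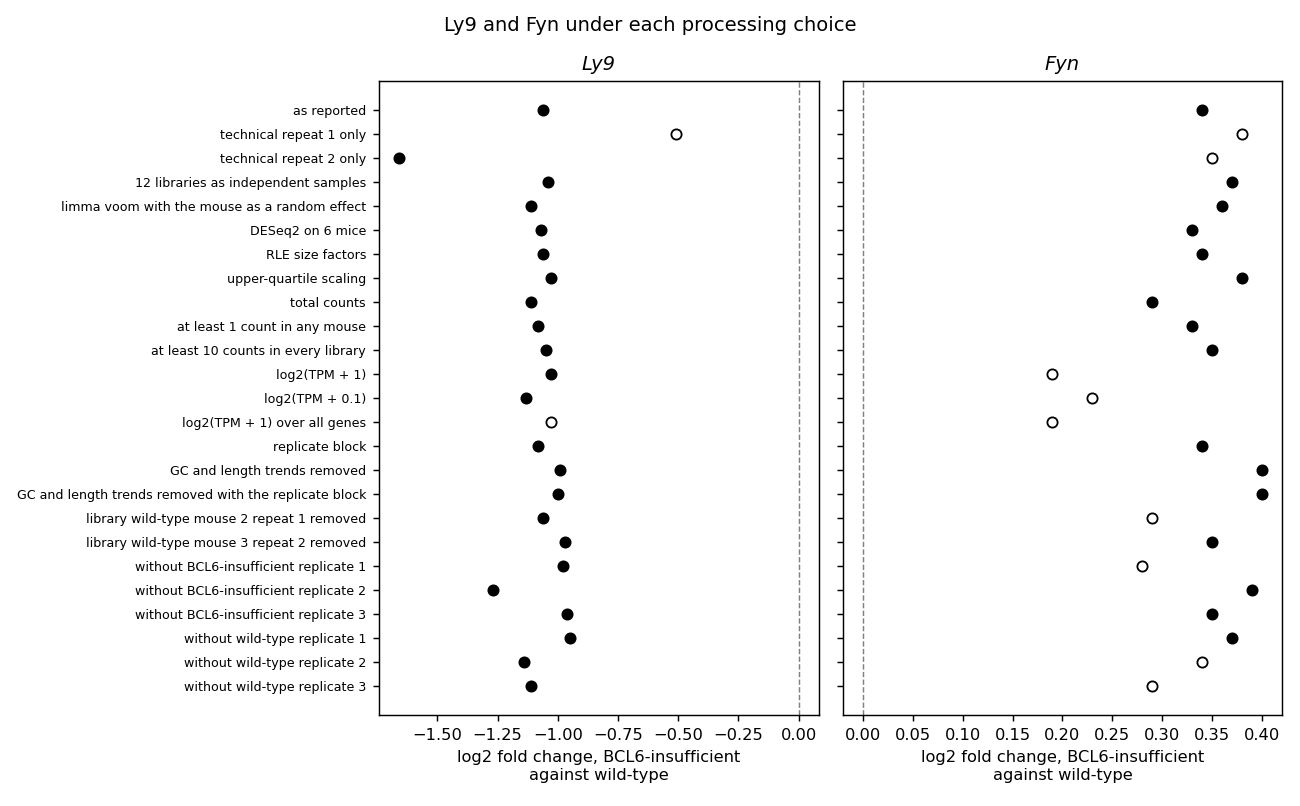
Log2 fold change of *Ly9* (left) and *Fyn* (right), BCL6-insufficient against wild-type, as reported and under 24 other processing choices; filled points have an adjusted p under 0.05. *Ly9* lies between -1.66 and -0.51 and *Fyn* between 0.19 and 0.40, each with its direction unchanged.

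*Cd84*, a self-binding receptor at 171839697 to 171890718 of chromosome 1, stood at 82.4, 96.3 and 69.0 CPM in the BCL6-insufficient mice and at 79.2, 68.6 and 61.9 CPM in the wild-type mice. The highest values were in the BCL6-insufficient group but the groups overlapped, and the difference did not pass (log2 fold change 0.24, SE 0.13, 95% interval -0.03 to 0.52, adjusted p = 0.222, edgeR). The log2 fold change of *Cd84* was 0.48 with repeat 1 alone (adjusted p = 0.0793, edgeR) and 0.0048 with repeat 2 alone. It ran from 0.12 to 0.35 when 1 mouse was left out. *Slamf1*, the receptor after which the family is named, lies at 171767127 to 171801184 and was low. It stood at 16.5, 12.7 and 14.6 CPM in the BCL6-insufficient mice and at 18.4, 19.6 and 7.96 CPM in the wild-type mice, where the lowest mouse decided the spread. Its log2 fold change of -0.06 had an interval of -0.61 to 0.49 (SE 0.27, adjusted p = 0.907, edgeR), so these data bound its difference only loosely.

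*Slamf7*, which encodes the receptor CRACC, lies at 171632403 to 171653035 on the reverse strand and had only 8 to 33 counts in a library. Its level was 2.69, 4.11 and 3.80 CPM in the BCL6-insufficient mice and 3.66, 4.98 and 2.25 CPM in the wild-type mice. Its log2 fold change of -0.04 had an interval of -0.93 to 0.85 (adjusted p = 0.965, edgeR). This is a fold of 0.526 to 1.80, which bounds the difference only loosely. *Gm37787*, an antisense gene, shares 423 exon bases with *Slamf7* (9.24% of the exon length of *Slamf7*) and had 15 counts in all 12 libraries. *Cd48*, at 171682009 to 171705258, stood at 142, 130 and 144 CPM in the BCL6-insufficient mice and at 143, 146 and 119 CPM in the wild-type mice. The groups overlapped, with a log2 fold change of 0.03 (SE 0.11, 95% interval -0.19 to 0.25, adjusted p = 0.871, edgeR) whose sign turned with the scaling.

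**Figure D3:**
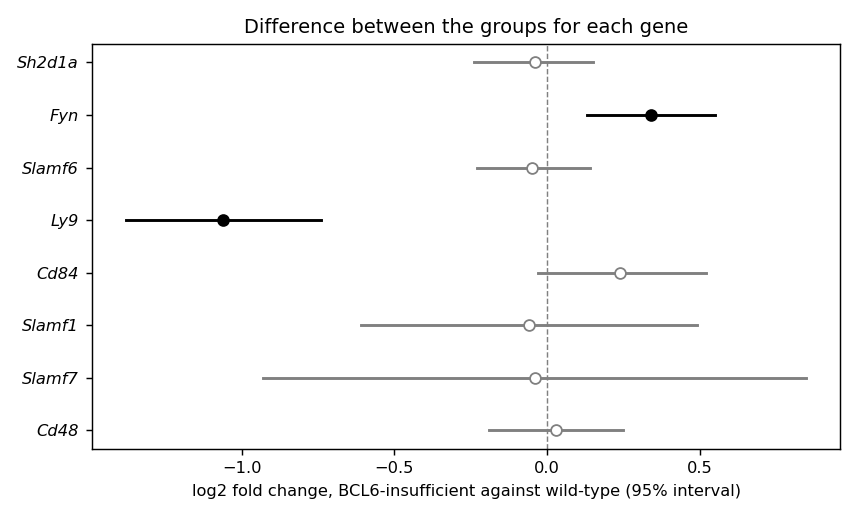
Log2 fold change of each gene, BCL6-insufficient against wild-type, with its 95% interval; filled points passed at an adjusted p under 0.05. The intervals of *Ly9* (-1.38 to -0.74) and *Fyn* (0.13 to 0.55) exclude 0, and that of *Slamf7* (-0.93 to 0.85) is the widest.

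To compare levels between genes, CPM was divided by the summed exon length in kilobases. On this scale *Cd48* was the highest at 117 ± 6.23 in the BCL6-insufficient mice and 114 ± 12.2 in the wild-type mice (SD, n = 3 each). *Sh2d1a* followed at 65.9 ± 4.56 and 68.0 ± 5.14 CPM per kilobase, then *Slamf6* at 55.3 ± 2.99 and 57.2 ± 4.08. The order of *Cd48* and *Sh2d1a* rests on the length used. With the longest transcript in place of all exons, *Sh2d1a* came first at 132 and 136, ahead of *Cd48* at 117 and 115 and *Slamf6* at 105 and 108. *Fyn* stood at 38.4 and 30.3 CPM per kilobase of exon. *Cd84* was at 13.2 ± 2.18 and *Ly9* at 9.65 ± 2.24 in the BCL6-insufficient mice, and in the wild-type mice *Ly9*, at 20.1 ± 2.74, was above *Cd84*, at 11.1 ± 1.39. *Slamf1* at 2.37 and 2.49 and *Slamf7* at 0.772 and 0.793 were the lowest.

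The summed CPM of the 6 surface receptors ran from 827 to 970 over the 6 mice and did not separate the groups. *Ly9* made up 3.25% to 4.41% of that sum in the BCL6-insufficient mice and 6.21% to 8.39% in the wild-type mice, whereas the part of *Slamf6* was 68.7% to 69.0% and 65.0% to 70.0%. A ratio of genes of the same mouse does not depend on the scaling. The ratio of *Ly9* to *Slamf6* was 0.0477, 0.0639 and 0.0472 in the BCL6-insufficient mice and 0.129, 0.0898 and 0.106 in the wild-type mice. These groups did not overlap. The ratio was chosen after the values were seen and largely restates the difference in *Ly9*. Its 2-sided exact permutation p was 0.1, the smallest that 3 against 3 mice can give, so it could not pass.

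The other members of the 2 families could not be compared. *Cd244a* reached at most 6 counts in a library and *Slamf9* had none in any library, so neither passed the filter. *Slamf8*, *Sh2d1b1* and *Sh2d1b2* were not analysed here. Of 16 genes that act in SLAM and SAP signalling or in phosphatase signalling from the same tails, all were tested. With the BCL6-insufficient label none passed as higher, 2 at an unadjusted p under 0.05, and 3 passed as lower, near the 18.0% of all genes called, with a median log2 fold change of -0.077 against 0.011 for all genes. *Dok1*, an adaptor that restrains signalling, fell from 10.8 ± 2.45 to 4.59 ± 3.11 CPM (SD, n = 3 each, log2 fold change -1.22, adjusted p = 0.0283, edgeR). Its value was -1.87 without BCL6-insufficient mouse 1, and the call was lost without BCL6-insufficient mouse 2 (-0.82, adjusted p = 0.103, edgeR), BCL6-insufficient mouse 3 (-1.20) or wild-type mouse 3 (-1.03). *Pik3cd*, the catalytic p110δ subunit of PI3K, fell from 211 to 166 CPM (-0.34, adjusted p = 0.0157, edgeR), and *Lcp2*, the adaptor SLP-76, from 232 to 183 CPM (-0.34, adjusted p = 0.0237, edgeR). The remaining 13, among them the phosphatase genes *Ptpn6*, *Ptpn11* and *Inpp5d*, did not pass.

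Among Src kinases and their regulators 11 of 16 genes were tested, of which 1 was higher and 2 were lower (18.0% of all genes were called), with a median log2 fold change of 0.062. *Lck*, the Src kinase that starts T cell receptor signalling, stood at 712, 605 and 643 CPM in the BCL6-insufficient mice and at 875, 781 and 811 CPM in the wild-type mice, a log2 fold change of -0.33 (adjusted p = 0.0121, edgeR). It thus differed in the opposite direction to *Fyn*, and the ratio of *Fyn* to *Lck* was 0.255, 0.259 and 0.255 in the BCL6-insufficient mice and 0.160, 0.171 and 0.152 in the wild-type mice. This ratio was also chosen after the values were seen. Each gene alone already separates the mice in opposite directions, which fixed its exact permutation p at 0.1 and makes that p no evidence beyond the 2 genes. *Skap1*, an adaptor bound by FYN, fell from 447 to 361 CPM (-0.31, adjusted p = 0.0150, edgeR). *Ptpra*, a phosphatase that acts on Src kinases, rose from 58.6 to 77.9 CPM (0.41, adjusted p = 0.0286, edgeR). Among the genes below the filter were *Yes1*, *Src*, *Lyn* and *Blk*.

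CD2 is the receptor for CD48 on mouse T cells. Of 6 genes for CD2 and its partners, 1 passed (18.0% of all genes), with a median log2 fold change of -0.035. *Pstpip1*, a scaffold bound to the CD2 tail, fell from 84.6 to 61.3 CPM (-0.46, adjusted p = 0.0151, edgeR). *Cd2* itself was at 324 and 325 CPM. *Cd247* stood at 440 and 449 CPM and *Cd3e* at 428 and 513 CPM (adjusted p = 0.872 and 0.0665, edgeR). Over the 33 pathway genes tested, 1 passed as higher and 6 as lower, against 9.17% and 8.82% of all genes, and the 7 in all are near the background of 18.0%. All 7 kept their direction in every alternative tried. Each of the 7 lost its call in between 4 and 10 of them, with repeat 1 alone in every case. Removing GC and length trends ended the calls of *Lck* (-0.20, adjusted p = 0.126, edgeR) and *Pstpip1* (-0.29, adjusted p = 0.125, edgeR). It also ended those of *Pik3cd* (-0.26, adjusted p = 0.0633, edgeR) and *Dok1* (-1.06, adjusted p = 0.0577, edgeR), while *Lcp2*, *Skap1* and *Ptpra* stayed called. Beside *Dok1*, leaving out 1 mouse ended the call of *Pik3cd* (wild-type mouse 2, -0.31), *Lcp2* (BCL6-insufficient mouse 3, -0.29, and wild-type mice 1, -0.27, and 2, -0.36), *Lck* (BCL6-insufficient mouse 2, -0.28, and wild-type mouse 1, -0.29) and *Skap1* (BCL6-insufficient mouse 1, -0.29, and wild-type mouse 3, -0.30). The same held for *Ptpra* (BCL6-insufficient mice 2, 0.38, and 3, 0.35, and wild-type mice 1, 0.30, and 2, 0.43) and *Pstpip1* (BCL6-insufficient mouse 2, -0.39, and wild-type mouse 1, -0.34). The count of 7 ran from 3 (without BCL6-insufficient mouse 2) to 8 when 1 mouse was left out, and was 4 without BCL6-insufficient mouse 3, without wild-type mouse 1 and without wild-type mouse 2.

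**Figure D4:**
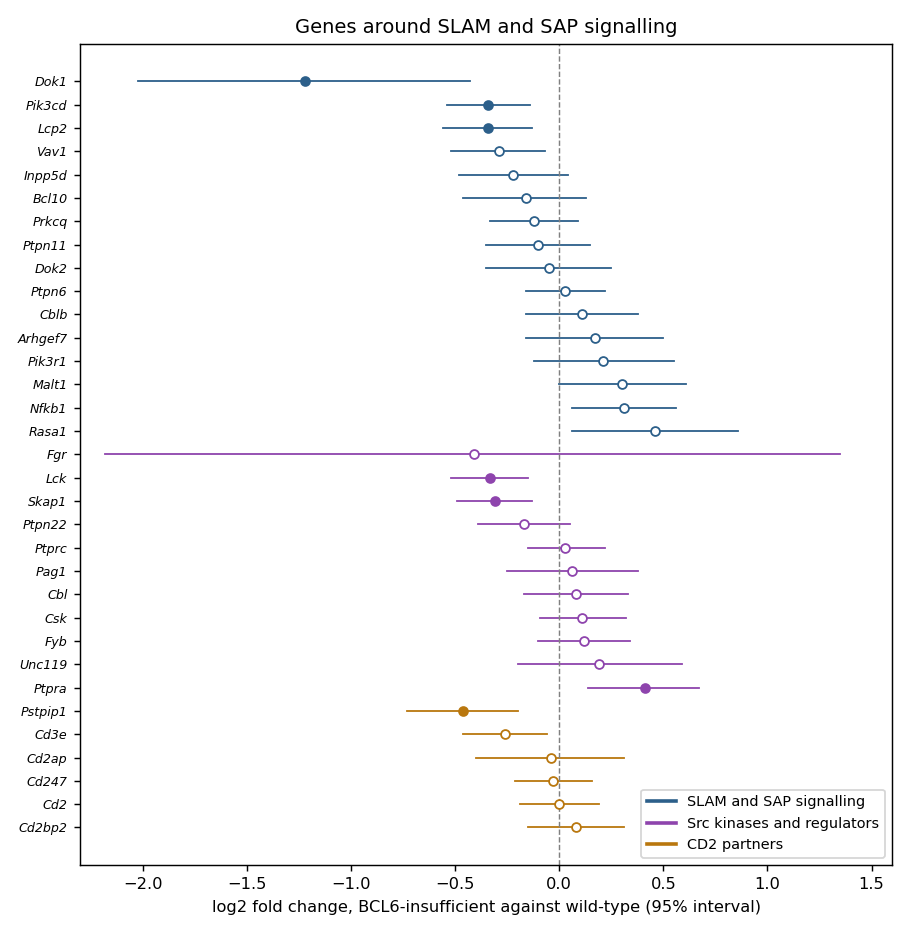
Log2 fold change with its 95% interval, BCL6-insufficient against wild-type, for the 33 pathway genes tested, coloured by list; filled points passed at an adjusted p under 0.05. Of the 7 filled points, *Ptpra* at 0.41 is on the higher side, and *Dok1* at -1.22 is the farthest from 0.

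The 6 receptor genes lie together on chromosome 1 within 365 kb, in the order *Ly9*, *Slamf7*, *Cd48*, *Slamf1*, *Cd84* and *Slamf6*. *Ly9* is at one end, and its nearest tested neighbours on the SLAM side, *Slamf7* and *Cd48*, were not called. Of 29 other genes tested within 500 kb of this stretch, 2 were higher and 6 lower in the BCL6-insufficient group, or 27.6% called (18.0% of all genes), with a median log2 fold change of -0.17. Those higher were *Pfdn2* (0.46) and *B930036N10Rik* (0.99). Among those lower were *Nit1* (-0.39), *Usf1* (-0.52), *Gm37756* (-1.16), *Pex19* (-0.55) and *Dcaf8* (-0.65). Many of these calls ended under other choices. Of 24 alternatives, *Nit1* was not called in 14, *Pex19* in 10, *Usf1* and *Pfdn2* in 8 each, *B930036N10Rik* in 3 and *Gm37756* and *Dcaf8* in 2 each. Leaving out 1 mouse ended the call of *Nit1* for every mouse but BCL6-insufficient mouse 3 (-0.43 to -0.33) and that of *Pex19* for the same 5 mice (-0.59 to -0.43). It ended that of *Usf1* for BCL6-insufficient mouse 1 (-0.47) and wild-type mouse 3 (-0.43), that of *Pfdn2* for BCL6-insufficient mice 1 (0.46) and 3 (0.42) and wild-type mice 1 (0.44) and 2 (0.40), and that of *B930036N10Rik* for wild-type mouse 3 (0.84). *Gm37756* and *B930036N10Rik* are annotated as antisense genes, whose reads cannot be told from those of a partner gene without knowledge of the strand.

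**Figure D5:**
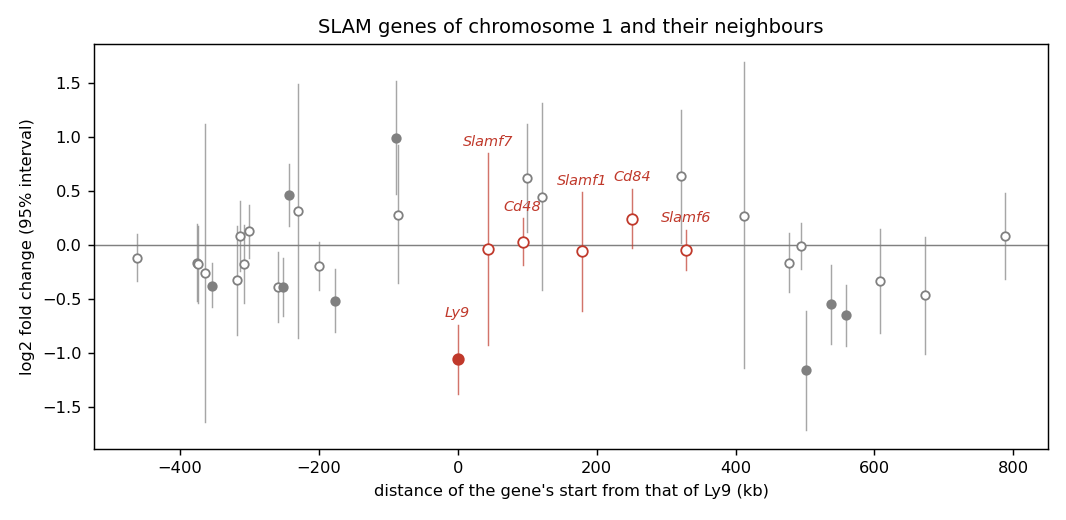
Log2 fold change with its 95% interval, BCL6-insufficient against wild-type, by the distance in kilobases of each gene's start from that of *Ly9*. Red points are SLAM genes, grey points the 29 neighbours, and filled points passed at an adjusted p under 0.05; *Ly9* at -1.06 is the only filled red point.

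Promoter windows of RefSeq on GRCm38.p6, from 250 bases before to 50 bases after the start, were found for *Slamf7*, *Cd48*, *Slamf1*, *Cd84*, *Slamf6* and *Fyn*. The motif TTCCTAGAA, the core bound by BCL6, was found on neither strand of any of the 6, and 0.411% of 32851 mouse windows held it. The looser TTCNNNGAA, which includes it and is shared with STAT proteins, was absent from all 6 and present in 8.30% of windows. E-boxes, CANNTG, occurred 1 or 2 times in each of the 6, and 72.3% of windows held at least 1. No match says only that these letters are not in these windows.

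Variation between libraries was compared with the group means removed, as Pearson correlations of log2(CPM + 1) over 12 libraries, which share mice and scaling. Over all 12718 other genes those most like *Sh2d1a* were *Ppip5k2* (0.90), *2810405F17Rik* (0.89), *A230072E10Rik* (0.88), *Acpp* (0.87) and *Pgs1* (0.87). Of these *2810405F17Rik* and *Acpp* had means of only 1.17 and 0.907 CPM, and *Ppip5k2* and *Pgs1* of 21.8 and 48.6 CPM. *Slamf7* was in place 327 (0.59) and *Slamf6* in place 2189 (0.30), and *Fyn* was at -0.19. The closest pair among the 8 genes was *Ly9* and *Cd84* (0.83), followed by *Slamf6* and *Ly9* (0.66) and by *Slamf1* and *Slamf7* (0.65), the least abundant pair. The lowest value was that of *Slamf7* and *Fyn* (-0.45). Repeat 1 of wild-type mouse 2 was the highest library of *Sh2d1a* (467 CPM), *Slamf1* (27.7 CPM) and *Slamf7* (6.61 CPM). How far their correlations rest on it was not tested. The highest of 12718 correlations over 12 libraries can be high by chance, which was not tested either.

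Of the 8 markers of Tfh cells, 4 passed as lower and 2 as higher, against 8.82% and 9.17% of all genes tested. *Cxcr5* (log2 fold change -0.40), *Pdcd1* (-0.42), *Cd4* (-0.34) and *Tcf7* (-0.27) were lower with the BCL6-insufficient label and *Icos* (0.64) and *Bcl6* (1.25) were higher, with adjusted p from 6.30e-07 to 0.0446 in edgeR. *Cd3e* (-0.26, adjusted p = 0.0665) and *Cd40lg* (0.19, adjusted p = 0.270) did not pass. Since SLAM proteins are carried by many blood cells, marker sums of other cells are given beside these results. The 9 B cell markers summed to 515 to 707 CPM in the BCL6-insufficient mice and to 610 to 846 CPM in the wild-type mice, with none of the 6 tested called by edgeR and 1, *Ighm*, lower at an unadjusted p under 0.05. Most of this was *Ighm*, at means of 533 and 655 CPM. The 5 myeloid and dendritic markers found summed to 106 to 111 CPM and 83.3 to 88.9 CPM. Most of this sum was *Cst3*, at means of 88.4 and 76.8 CPM, which did not pass (adjusted p = 0.240, edgeR). Of the 4 myeloid and dendritic markers tested only *Lyz2* passed, higher at 7.77 ± 7.52 against 1.24 ± 1.02 CPM (SD, n = 3 each, adjusted p = 0.00531, edgeR). Plasma cell markers summed to 119 to 173 and 107 to 133 CPM, with *Irf4*, which activated T cells also express, higher at a log2 fold change of 0.70, and NK and NKT markers to at most 1.65 CPM. The 2 CD8 markers summed to 21.1 to 31.9 and 26.5 to 39.6 CPM, nearly all of it *Cd8b1*. The part of these cells and of the Tfh markers that differed in the differences of *Ly9* and *Fyn* was not tested.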

How the data were processed

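RNA of about 200 sorted Tfh cells per library was amplified with a SMART-Seq2 protocol. The authors mapped the reads with HISAT2 2.2.1 to GRCm38 and deposited counts per gene, unnormalized, made with HTSeq. They also deposited TPM values, used here only as an alternative. Strandedness and annotation release are not given in the sources used here. Reads carried no molecular identifiers, so intervals from counting alone would be too narrow.

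Counts of the technical repeats were added up per mouse, and the 6 mice were compared over all genes with edgeR 4.0.16 in R 4.3.3 (TMM, filterByExpr, quasi-likelihood test, Benjamini-Hochberg adjustment over 12719 genes, threshold 0.05). Each SE was derived from the F statistic. Fits were tested on simulated data. The study's design used DESeq2, here an alternative at version 1.42.0. limma 3.58.1 served for voom and TPM. The alternatives varied how repeats entered, the scaling, the low-count filter, the unit, the replicate block, GC and length trends (mgcv 1.9.3) and the libraries kept. Those for single genes outside the 8, and the test of the change between repeats, were added after seeing the data. The alternatives for the count of pathway genes called were planned. In the annotation, GENCODE M21 of GRCm38, 23822 symbols were found by name, 208 by a synonym and 531 not. The 8 genes, the gene lists and the marker lists were chosen with earlier results of these data known. Named were all 8, the called genes of each list (up to 6), the 2 of highest CPM where fewer than 2 were called, called chromosome 1 neighbours and the 5 genes most like *Sh2d1a*, except that a few genes of these lists are not reported here.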

Additional observations from a re-analysis of the deposited data

Results flagged for a closer look

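Among 16 groups of 6 libraries, 8 genes in each genotype, 1 held a library far from the others. Chance flags about 1 in 20 groups. *Sh2d1a* stood at 467 CPM in repeat 1 of wild-type mouse 2, and the median of the other 5 wild-type libraries was 360 CPM. The gap to the nearest library was 0.637 of the whole range of the group.

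*Slamf6* was lower in repeat 2 than in repeat 1 in all 3 BCL6-insufficient mice and higher in all 3 wild-type mice. The mean log2 change was -0.50 in the BCL6-insufficient mice relative to the wild-type mice. The edgeR test of this difference did not pass over all genes (adjusted p = 0.330).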

How the results depend on the processing

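The lower level of *Ly9* and the higher level of *Fyn* kept their direction in all 24 alternatives. In edgeR or limma, the 2 genes called became 0 with repeat 1 alone (3 at an unadjusted p under 0.05), 1 with repeat 2 alone, 1 with log2(TPM + 1) or log2(TPM + 0.1), 0 with log2(TPM + 1) over all genes (1 at an unadjusted p under 0.05) and 1 without repeat 1 of wild-type mouse 2. The 1 called higher became 0 in each of these 6, and the 1 called lower became 0 with repeat 1 alone and with TPM over all genes. When 1 mouse was left out, 1 to 2 were called, of which 0 to 1 higher and always 1 lower, and 3 to 8 pathway genes instead of 7. The cause was not tested. Same-numbered mice of the 2 groups correlated at 0.0852, -0.0283 and 0.0247, and mice of different number at -0.0834 to 0.0596. With 3 mice per group these values cannot tell whether a number marks a shared batch. With the number as a replicate block, 2 of the 8 were called, *Ly9* at -1.08 and *Fyn* at 0.34, 2579 of all genes passed instead of 2288, and *Cd3e* was called (-0.26, adjusted p = 0.0214, edgeR), as it was in 10 of 24 alternatives in all, with values from -0.39 to -0.18 over the 24.

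Genes that were not called changed sign in places. *Sh2d1a* stood at 0.0074 with repeat 2 alone and 0.01 without repeat 1 of wild-type mouse 2. *Slamf1* stood at 0.19 with repeat 2 alone, 0.093 with voom, 0.01 with the replicate block and 0.15 without repeat 1 of wild-type mouse 2. *Slamf6* stood at 0.23 with repeat 1 alone and 0.035 without repeat 2 of wild-type mouse 3. *Slamf7* stood at 0.10 with voom and 0.14 without repeat 1 of wild-type mouse 2. *Cd48* stood at -0.018 with total counts, -0.082, -0.087 and -0.082 in the TPM fits, -0.11 with GC and length trends removed and -0.10 with the replicate block added. *Cd247* stood at 0.14 with repeat 1 alone, 0.0058 with upper-quartile scaling and 0.037 without repeat 2 of wild-type mouse 3. Leaving out 1 mouse gave -0.10 to 0.0099 for *Sh2d1a*, -0.38 to 0.15 for *Slamf1*, -0.09 to 0.0026 for *Slamf6*, -0.30 to 0.25 for *Slamf7*, -0.06 to 0.077 for *Cd48* and -0.09 to 0.0083 for *Cd247*.

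Of all genes, 1166 were called higher and 1122 lower, against 1331 and 957 with upper-quartile scaling, 963 and 1387 with total counts, and 390 and 915, 374 and 886, and 78 and 143 in the 3 TPM fits. With log2(TPM + 0.1) the median of all genes moved from 0.011 to -0.111, and *Ly9* and *Fyn* relative to it stood at the same sides of 0. The 2288 calls became 1059 with repeat 1 alone, 1446 with repeat 2 alone, 1305, 1260 and 221 with TPM, and 1424 without wild-type mouse 3. *Slamf7* had too few counts to be fitted with a minimum of 10 counts in every library.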
